A study of Bos taurus with 15 samples.

Results

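The 40 genes described here, classical targets of glucocorticoids, were followed in bovine testis, one gene at a time. The genes are textbook targets of the glucocorticoid receptor in other tissues, and a probe was assigned to a gene by its symbol, gene number, accession or description on the array. Of the 40 genes, 39 had at least 1 of 48 probes, and 35 were measured well enough to test, against 15643 genes named and 13920 genes tested on the whole array. MT1E had no probe of its own, and the bovine gene table lists that name only as another name of MT1A.

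The study took whole testis from 15 cattle and hybridised the RNA of each animal to 1 single-colour Agilent oligonucleotide array. The 7 control animals (control 17, 18, 20, 21, 22, 23 and 24) were untreated. The 8 treated animals (prednisolone 25 to 32) were given 30 mg of prednisolone per head by mouth every day over 35 days. The labels give no breed, age, genotype or interval between the last dose and sampling. Genes of Sertoli cells, spermatocytes and spermatids, the cells expected in a testis, were well above background on the 14 arrays other than prednisolone 30 for 9 of 9, 6 of 6 and 10 of 11 listed markers with a probe, and Leydig cell markers for 6 of 7. RNA came from whole tissue, so fewer cells of a type and less RNA per cell cannot be told apart for any gene below.

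Prednisolone is a synthetic glucocorticoid that binds the glucocorticoid receptor, a transcription factor that moves into the nucleus once it holds its ligand. There it binds DNA and raises the transcription of a set of genes that includes brakes on inflammatory and growth factor signalling, transcription factors that pass the signal on, metallothioneins, and enzymes of glucose and amino acid metabolism. In the testis the receptor is known from Leydig, Sertoli and peritubular cells, and glucocorticoid excess is known to lower testosterone production. Many targets respond within hours of a dose, and some return towards their starting level during continued treatment.

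Each value below is a log2 level relative to the 75th percentile of its own array, so a difference of 1 is a 2-fold difference, and levels are compared between animals but not between genes. Testing required a probe that exceeded background clearly on no fewer than 7 of the 15 arrays over both groups, and where several probes named a gene, the brightest on average stood for it. Differences are prednisolone minus control, from limma, with 95% confidence intervals and Benjamini-Hochberg adjustment over all tested probes.

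The arrays of 2 animals stood apart from the rest. On the array of prednisolone 30 the 75th percentile of the processed signal was 49.8, against 1220 to 2780 on the others, and 36.4% of the probes were well above background, against 82.2% to 89.9%. Its values correlated at 0.705 to 0.736 with those of the other arrays. The authors' deposited value for this animal did not follow its scanner file either, with a correlation of gene-centred values of 0.037 against 0.931 to 0.974 for the other animals, and which of the 2 measurements belongs to the animal was not settled. Only 11 of the 35 tested targets (31.4%, against 47.3% of all tested genes) were well above background on that array, and for the rest its value is only a bound. It gave the highest value of the 15 arrays for 31.4% of the targets and 35.5% of all genes, and the lowest for 40.0% and 37.2%. Control 17 had a normal signal but high levels of smooth muscle, matrix, endothelial and macrophage genes, as described further below. Group differences of the targets are therefore given with all arrays and without both.

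No target gene passed the test between prednisolone and control. The adjusted p of limma ran from 0.883 to 0.993 for the 35 targets, and the share of all 13920 genes called was likewise 0%. Of the targets, 14 had a higher mean in the treated animals and 21 a lower one (40.0% higher, against 52.1% of all tested genes), and their median difference was -0.04 against 0.02 for all genes. This split moved with the scaling, to 10 higher and 25 lower with quantile scaling or in the authors' deposited values and to 20 higher and 15 lower with normexp background correction. RASD1 was the only target with an unadjusted limma p below 0.05, or 2.86% of the targets against 2.44% of all genes. No target separated the 7 controls from the 8 treated animals without overlap, as 0.0431% of all genes did.

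The intervals give the range of differences that the data allow for each gene. The upper bound lay below a 2-fold increase for 28 of the 35 targets (80.0%, against 81.1% of all tested genes) and below a 1.5-fold increase for 22 (62.9%, against 60.7%). Without prednisolone 30 the upper bound lay below 2-fold for 34 targets (97.1%, against 97.4%). Without both arrays it lay below 2-fold for 34 (97.1%, against 97.5%) and below 1.5-fold for 28 (80.0%, against 83.9%). These shares lay near those of all tested genes. The 1.5-fold share of the targets was lower than that of all genes without prednisolone 30 alone (71.4%, against 81.2%). It was also lower without control 17 alone (54.3%, against 61.8%). Without both arrays 16 targets had a higher mean and 19 a lower one (median -0.03). The exception at 2-fold without both arrays was ANXA1. Leaving out control 17 alone turned the balance to 20 higher and 15 lower, with a median of 0.06, and leaving out prednisolone 30 alone gave 13 higher and 22 lower, with a median of -0.08. RASD1, FOXO1 and SCNN1A (8.57% of the targets) had an unadjusted limma p below 0.05 without prednisolone 30, against 4.2% of all genes. The same 3 did so without both arrays, against 4.94% of all genes. The adjusted limma call was again made for 0% of the genes in both fits. In the authors' deposited values 6 targets had an unadjusted limma p below 0.05 (CEBPD, FOXO1, RASD1, MT2A, PDK4 and SCNN1A). They were 17.1% of the targets, against 5.54% of all genes, and again 0% were called after adjustment by limma.

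**Figure D1:**
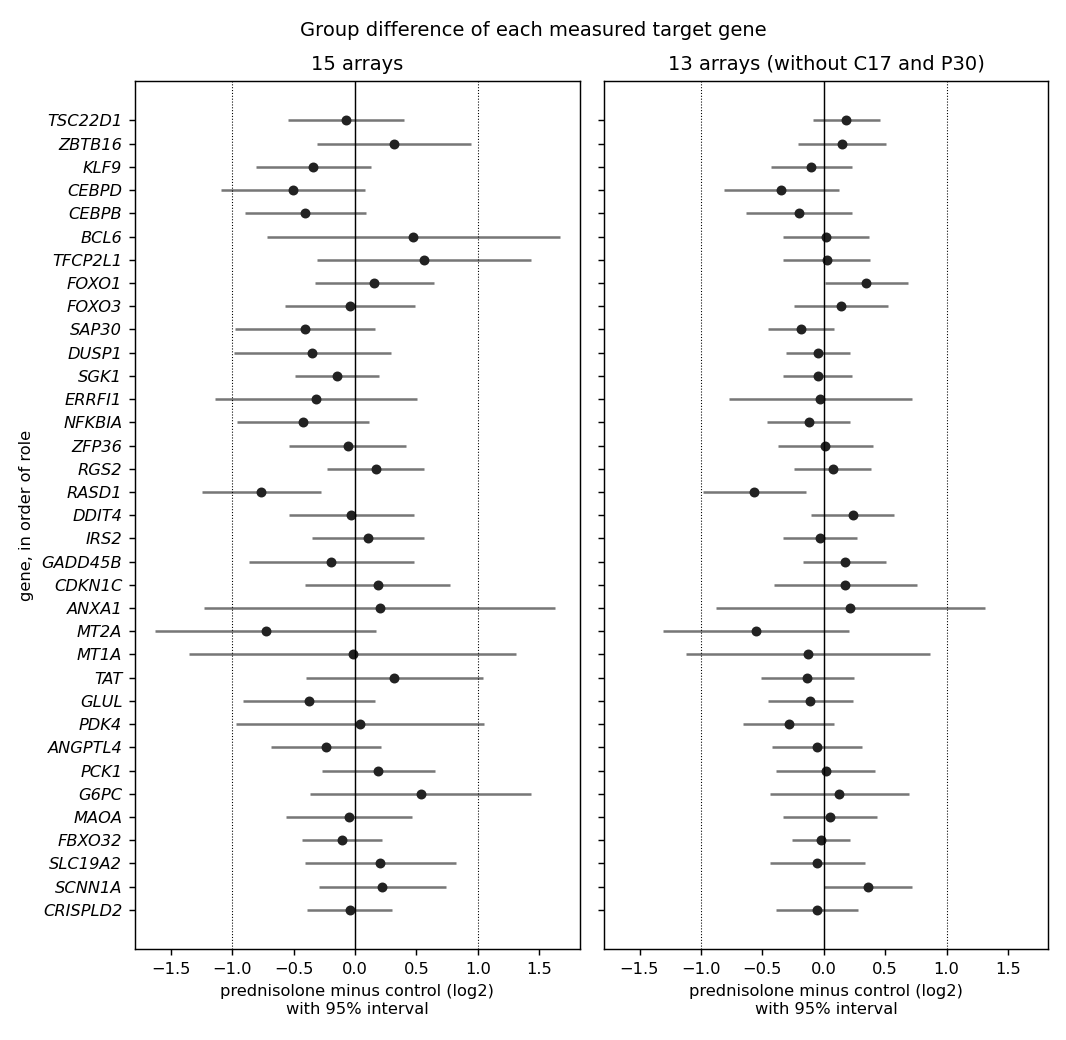
Difference between prednisolone and control (log2, horizontal axis) for each of the 35 tested targets, as a point with its 95% interval, with all 15 arrays on the left and without control 17 and prednisolone 30 (C17 and P30) on the right; dotted lines mark a 2-fold difference either way. Nearly every interval crosses 0, and only RASD1 lies wholly below it in both panels.

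The first group of targets holds transcription factors and regulators that carry the hormone signal to further genes. Of its 12 genes 10 were tested, 4 with a higher and 6 with a lower mean in the treated animals, and none passed the test. KLF9, a Krüppel-like repressor that is a direct target of the receptor in many tissues, lay between -1.25 and 0.22 in the controls (median -1.02) and between -1.62 and -0.67 in the treated animals (median -1.15). The value of 0.22 was that of control 17, and the next control lay at -0.61, against -0.67 in the highest treated animal. The difference in KLF9 was -0.34 (-0.80 to 0.13) and became -0.10 (-0.43 to 0.23) without both arrays.

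ZBTB16, a zinc finger factor needed by spermatogonial stem cells and one of the most responsive glucocorticoid targets elsewhere, lay between -2.99 and -2.01 in the controls (median -2.36) and between -3.10 and -0.41 in the treated animals (median -2.21). The treated animals other than prednisolone 30 reached no higher than -2.12, inside the control range. Its difference was 0.32 (-0.31 to 0.94), or 0.15 (-0.21 to 0.50) without both arrays. A second ZBTB16 probe gave 0.62 with all arrays and 0.14 without both.

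CEBPB and CEBPD, leucine zipper factors of the acute phase response, had lower means in the treated animals. CEBPD lay between -4.56 and -2.59 in the controls (median -3.87) and between -4.80 and -3.57 in the treated animals (median -4.56). Of the treated values 7 of 8 were below the control mean, and they overlapped the controls. The value of -2.59 was that of control 17, and the next control lay at -3.55. The control mean was -3.84, and -4.05 without control 17. Among the 7 was prednisolone 30 (-4.02), where CEBPD was not well above background. Its difference was -0.51 (-1.09 to 0.08), or -0.34 (-0.82 to 0.13) without both arrays, and its second probe gave -0.10 with all arrays and -0.45 without both. CEBPB lay between -3.28 and -1.86 in the controls (median -2.75) and between -3.53 and -2.49 in the treated animals (median -3.07), again with 7 of 8 treated animals below the control mean. Its difference was -0.40 (-0.90 to 0.09), or -0.20 (-0.64 to 0.23) without both arrays.

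FOXO1, a forkhead factor that insulin signalling holds out of the nucleus and that drives fasting genes, lay between -3.12 and -2.40 in the controls (median -2.55) and between -3.68 and -1.93 in the treated animals (median -2.42). The lowest value was that of prednisolone 30, where FOXO1 was not well above background, and the other treated animals lay between -2.69 and -1.93. The difference was 0.16 (-0.32 to 0.64) with all arrays and 0.35 (0.01 to 0.68, unadjusted p = 0.043 and adjusted p = 0.931 by limma) without both. It turned to -0.26 with quantile scaling of all arrays and was 0.19 within the first scan day. The groups overlapped with and without both arrays. FOXO3, its close relative, had means of 0.96 ± 0.36 (SD, n = 7) and 0.91 ± 0.58 (SD, n = 8) in control and treated animals, a difference of -0.04 (-0.57 to 0.48), and 0.14 (-0.24 to 0.52) without both arrays.

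TFCP2L1, a factor of the grainyhead family, lay between -3.78 and -2.25 in the controls (median -2.38) and between -2.96 and 0.36 in the treated animals (median -2.47). Its difference of 0.56 (-0.31 to 1.44), the highest of the 35, came down to 0.02 (-0.33 to 0.38) without both arrays, since prednisolone 30 gave the highest value and control 17 the lowest. Its second probe gave -0.01. BCL6, a repressor of inflammatory genes, had means of -4.82 ± 0.29 (SD, n = 7) and -4.35 ± 1.6 (SD, n = 8). The difference in BCL6 of 0.48 (-0.72 to 1.67) became 0.02 (-0.33 to 0.37) without both arrays. TSC22D1, a relative of the leucine zipper gene TSC22D3, had means of 2.15 ± 0.32 (SD, n = 7) and 2.08 ± 0.50 (SD, n = 8), with a difference of -0.07 (-0.54 to 0.40), or 0.18 (-0.09 to 0.45) without both arrays. A second, weaker TSC22D1 probe gave 0.31 with all arrays, the opposite sign, and 0.01 without both. SAP30, a subunit of a histone deacetylase complex, had means of -1.59 ± 0.13 (SD, n = 7) and -2.0 ± 0.73 (SD, n = 8). Its difference of -0.41 (-0.98 to 0.16) became -0.19 (-0.46 to 0.09) without both arrays.

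**Figure D2:**
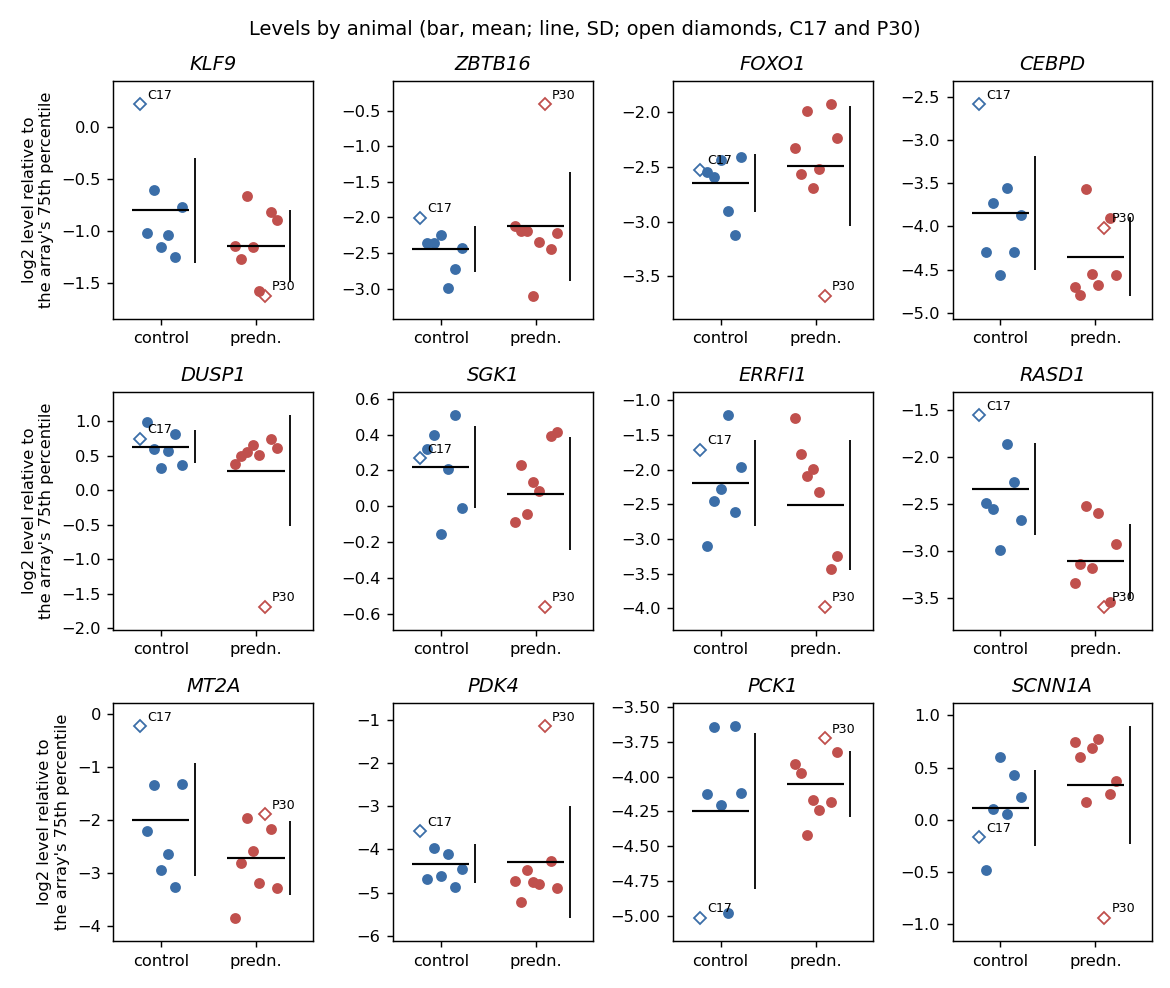
Log2 level relative to the array's 75th percentile (vertical axis, own scale in each panel) of 12 targets in the 7 control (blue) and 8 prednisolone (red) animals; horizontal bars are means, vertical lines span 1 SD either side, and open diamonds mark control 17 (C17) and prednisolone 30 (P30). The groups overlap in every panel, C17 is the highest control for KLF9, ZBTB16, CEBPD, RASD1, MT2A and PDK4, and P30 lies apart for ZBTB16, FOXO1, DUSP1, PDK4 and SCNN1A.

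The second group holds 12 genes of intracellular signalling, inflammation and growth control, many of them brakes. All 12 were tested, 4 with a higher and 8 with a lower mean, and none passed the test. DUSP1, a phosphatase that switches off stress-activated kinases, lay between 0.33 and 0.99 in the controls (median 0.60) and between -1.69 and 0.75 in the treated animals (median 0.53). Apart from prednisolone 30 at -1.69, the treated animals lay within 0.38 and 0.75, wholly inside the control range. Its difference of -0.35 (-0.99 to 0.29) became -0.05 (-0.30 to 0.21) without both arrays. The within-group SD of DUSP1 over the 13 other arrays was 0.19, among the smallest of the targets.

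SGK1, a kinase that glucocorticoids and mineralocorticoids induce and that raises sodium transport, lay between -0.16 and 0.51 in the controls (median 0.27) and between -0.56 and 0.41 in the treated animals (median 0.11). Its difference was -0.15 (-0.49 to 0.20), or -0.05 (-0.33 to 0.23) without both arrays. A second, weaker SGK1 probe gave 0.49 with all arrays and 0.15 without both, so the 2 probes had opposite signs. ERRFI1, an inhibitor of the epidermal growth factor receptor, lay between -3.10 and -1.21 in the controls (median -2.28) and between -3.98 and -1.26 in the treated animals (median -2.20). ERRFI1 varied widely within both groups, and its difference of -0.32 (-1.14 to 0.50) became -0.03 (-0.77 to 0.72) without both arrays.

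RASD1, a small GTPase first found as a dexamethasone-induced gene, showed the clearest difference of all the targets, and it was a lower level in the treated animals. The controls lay between -2.99 and -1.56 (median -2.49) and the treated animals between -3.59 and -2.52 (median -3.16). Each of the 8 treated animals was below the mean of the controls, yet 3 of them lay within the control range. The means were -2.34 ± 0.49 (SD, n = 7) and -3.10 ± 0.40 (SD, n = 8), a difference of -0.76 (-1.25 to -0.28), equal to 0.589 of the control level, with an unadjusted p of 0.004 and an adjusted p of 0.883 by limma. RASD1 differed by -0.69 without prednisolone 30, -0.63 without control 17, -0.56 (-0.98 to -0.15) without both and -0.63 in the authors' deposited values. With the scan day as a block the difference was -1.08, with the slide as a block -1.06, and within the first scan day, which held 3 controls and 6 treated animals, -1.08. With normexp background correction it was -0.34.

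NFKBIA, the inhibitor that holds NF-kappa-B in the cytoplasm, had means of -0.77 ± 0.68 (SD, n = 7) and -1.19 ± 0.26 (SD, n = 8). Each of the 8 treated values was below the control mean, to which control 17 contributed a value of 0.52, and the difference of -0.42 (-0.96 to 0.11) became -0.12 (-0.46 to 0.22) without both arrays. With all arrays it was -1.01 with the scan day as a block (unadjusted p = 0.0051 and adjusted p = 0.929 by limma), -1.03 with the slide as a block and -1.01 within the first scan day, which holds both outlying arrays. NFKBIA and RASD1 were the 2 of 35 targets with an unadjusted limma p below 0.05 in those blocked fits and within the first scan day. Of all 13920 genes, 240 had one with the scan day as a block, 243 with the slide as a block and 117 within the first scan day. The scan-day block and the first scan day gave the same estimate, since the other days held a single group. ZFP36, which destabilises cytokine messages, had means of -2.84 ± 0.47 (SD, n = 7) and -2.90 ± 0.40 (SD, n = 8), a difference of -0.06 (-0.54 to 0.42), or 0.01 (-0.37 to 0.40) without both. ANXA1, a mediator of the anti-inflammatory action of glucocorticoids, exceeded background clearly on 5 of 7 arrays of controls and 5 of 8 of treated animals. Its means of -6.59 ± 1.44 (SD, n = 7) and -6.39 ± 1.43 (SD, n = 8) gave a difference of 0.20 (-1.23 to 1.63), or 0.22 (-0.88 to 1.31) without both, the least precise of the targets.

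DDIT4, an inhibitor of mTORC1 that glucocorticoids induce in muscle and lymphocytes, had means of 0.80 ± 0.59 (SD, n = 7) and 0.77 ± 0.35 (SD, n = 8). Its difference was -0.03 (-0.54 to 0.48), and without both arrays, of which control 17 carried the highest value at 2.06, it was 0.23 (-0.10 to 0.57). RGS2, a regulator of G protein signalling read through a probe placed by its description, differed by 0.17 (-0.22 to 0.56) between means of -1.55 ± 0.30 (SD, n = 7) and -1.39 ± 0.37 (SD, n = 8), and by 0.07 (-0.24 to 0.38) without both arrays. IRS2, an insulin receptor adaptor, differed by 0.11 (-0.35 to 0.56) between means of -4.29 ± 0.17 (SD, n = 7) and -4.18 ± 0.54 (SD, n = 8), and by -0.03 (-0.33 to 0.27) without both. The growth brakes GADD45B and CDKN1C gave -0.19 (-0.87 to 0.48) and 0.18 (-0.41 to 0.77), and without both arrays 0.17 (-0.17 to 0.51) and 0.18 (-0.40 to 0.76). GADD45B had means of -0.20 ± 0.32 (SD, n = 7) and -0.39 ± 0.83 (SD, n = 8), and CDKN1C of -0.55 ± 0.65 (SD, n = 7) and -0.37 ± 0.48 (SD, n = 8).

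The metallothioneins are small zinc-binding proteins that both metals and glucocorticoids induce. MT2A lay between -3.25 and -0.23 in the controls (median -2.20) and between -3.84 and -1.88 in the treated animals (median -2.70). Control 17 was the highest animal and the groups overlapped widely. The means of MT2A were -1.99 ± 1.07 (SD, n = 7) and -2.71 ± 0.69 (SD, n = 8), a difference of -0.73 (-1.63 to 0.17), or -0.55 (-1.31 to 0.20) without both arrays. MT1A, clear of background on 5 of 7 arrays of controls and 6 of 8 of treated animals, had means of -5.92 ± 1.32 (SD, n = 7) and -5.94 ± 1.35 (SD, n = 8) and a difference of -0.02 (-1.35 to 1.31), or -0.13 (-1.12 to 0.86) without both.

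The metabolic targets are enzymes of glucose, amino acid and lipid handling and the secreted IGFBP1. Of the 8, 7 were tested, 4 with a higher and 3 with a lower mean, and none passed the test. PDK4, the kinase that shuts off pyruvate dehydrogenase in fasting, lay between -4.87 and -3.59 in the controls (median -4.45) and between -5.23 and -1.15 in the treated animals (median -4.74). Prednisolone 30 gave the value of -1.15, where PDK4 was not well above background, and the other treated animals reached no higher than -4.27. The difference was 0.04 (-0.97 to 1.05) with all arrays, -0.41 (-0.83 to 0.01) without prednisolone 30 and -0.28 (-0.65 to 0.08) without both.

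GLUL, glutamine synthetase, lay between -1.83 and -0.86 in the controls (median -1.48) and between -3.03 and -1.18 in the treated animals (median -1.63). Its difference was -0.38 (-0.91 to 0.16), or -0.11 (-0.45 to 0.24) without both arrays. PCK1, the enzyme that commits carbon to glucose synthesis, lay between -5.01 and -3.64 in the controls (median -4.13) and between -4.42 and -3.73 in the treated animals (median -4.07). The treated values all lay inside the control range, and the difference was 0.19 (-0.27 to 0.65), or 0.02 (-0.39 to 0.42) without both arrays.

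G6PC, the last enzyme of glucose release, lay between -6.80 and -4.88 in the controls (median -5.44) and between -5.93 and -2.70 in the treated animals (median -5.46). Its difference of 0.53 (-0.37 to 1.44) became 0.13 (-0.44 to 0.69) without both arrays, and 3 controls exceeded every treated animal other than prednisolone 30. TAT, the tyrosine aminotransferase long used as a liver readout of glucocorticoids, lay between -5.13 and -3.20 in the controls (median -3.77) and between -4.31 and -1.84 in the treated animals (median -3.80). Its difference of 0.32 (-0.40 to 1.04) turned to -0.13 (-0.51 to 0.24) without both arrays. ANGPTL4, an inhibitor of lipoprotein lipase, had means of -1.26 ± 0.45 (SD, n = 7) and -1.50 ± 0.36 (SD, n = 8) and a difference of -0.23 (-0.68 to 0.22), or -0.06 (-0.42 to 0.31) without both arrays. MAOA, which breaks down monoamines, had means of -0.86 ± 0.61 (SD, n = 7) and -0.91 ± 0.33 (SD, n = 8) and a difference of -0.05 (-0.56 to 0.46), or 0.05 (-0.33 to 0.43) without both.

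Of the ubiquitin ligases that mark muscle wasting, only FBXO32 was tested. FBXO32 lay between -1.07 and -0.11 in the controls (median -0.90) and between -1.06 and -0.66 in the treated animals (median -0.87). The treated range lay inside that of the controls. Its difference was -0.11 (-0.43 to 0.22), or -0.02 (-0.26 to 0.21) without both arrays, and its within-group SD of 0.16 over 13 arrays was the smallest of the targets.

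The 3 remaining targets act in transport or are secreted, and 2 of them had a higher mean. SCNN1A, the alpha subunit of the epithelial sodium channel, lay between -0.49 and 0.60 in the controls (median 0.11) and between -0.94 and 0.77 in the treated animals (median 0.49). The value of -0.94 was that of prednisolone 30, and 7 of 8 treated animals exceeded the mean of the controls. Its difference was 0.22 (-0.29 to 0.74) with all arrays and 0.36 (0.002 to 0.72, unadjusted p = 0.049 and adjusted p = 0.931 by limma) without both. It was 0.37 within the first scan day. Within the slide that held control 17 and 18 and prednisolone 25 and 26 the difference was 1.002. On that slide the controls lay at -0.17 and -0.49, below every other control. Within the slide that held control 23 and prednisolone 29 and 30 the difference was -0.52. Control 23 lay at 0.43, prednisolone 29 at 0.77 and prednisolone 30, where SCNN1A was not well above background, at -0.94. The cause of the opposite signs on these slides was not tested. The groups overlapped with and without both arrays, since the controls reached 0.60 and the treated animals other than prednisolone 30 lay between 0.17 and 0.77. SLC19A2, a thiamine transporter, had means of -2.86 ± 0.20 (SD, n = 7) and -2.66 ± 0.78 (SD, n = 8) and a difference of 0.21 (-0.41 to 0.82), or -0.05 (-0.44 to 0.34) without both. CRISPLD2, a secreted protein that binds lipopolysaccharide, had means of 0.20 ± 0.16 (SD, n = 7) and 0.16 ± 0.36 (SD, n = 8) and a difference of -0.04 (-0.39 to 0.30), or -0.05 (-0.39 to 0.28) without both. Its second probe gave -0.19 with all arrays and -0.18 without both.

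A further 4 targets had a probe that was too dim to test. TSC22D3, the glucocorticoid-induced leucine zipper and the best known target of the set, exceeded background clearly on 0 of 7 arrays of controls and 1 of 8 of treated animals. Its values, which are only bounds, lay between -8.96 and -7.74 in the controls (median -8.76) and between -9.63 and -4.03 in the treated animals (median -8.84), and the top treated value apart from prednisolone 30 was -6.97. KLF15, a regulator of amino acid breakdown, passed on 2 of 7 and 4 of 8 arrays, IGFBP1, a binding protein of insulin-like growth factors, on 0 of 7 and 0 of 8, and TRIM63, a muscle ubiquitin ligase, on 2 of 7 and 1 of 8. The treated array on which TRIM63 passed was that of prednisolone 30. Among the tested targets, a second probe was also too dim to test for BCL6 (2 of 7 and 4 of 8 arrays), IRS2 (0 of 7 and 2 of 8) and G6PC (0 of 7 and 0 of 8). A dim probe does not show that a gene is not expressed.

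**Figure D3:**
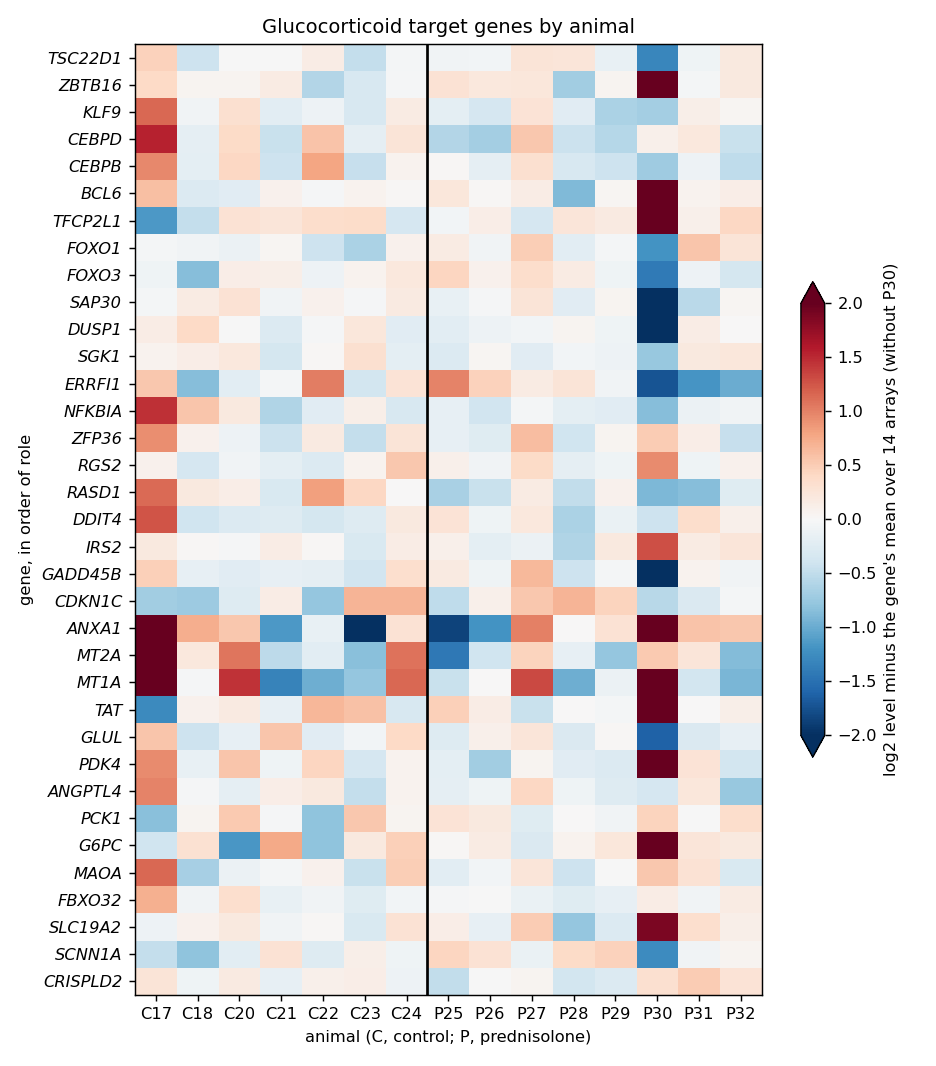
Log2 level of each of the 35 tested targets (rows, in order of role) in each animal (columns; C, control; P, prednisolone; the black line parts the groups), minus the mean of the gene over the 14 arrays other than prednisolone 30; colours end at 2 either way. The column of control 17 is high over much of the list, P30 is far off in both directions, and no block of rows parts the groups.

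Control 17 stood high over much of the set. It gave the highest value of the 14 arrays other than prednisolone 30 for 18 of the 35 targets (51.4%), against 19.7% of all tested genes. These were TSC22D1, ZBTB16, KLF9, CEBPD, CEBPB, BCL6, NFKBIA, ZFP36, RASD1, DDIT4, ANXA1, MT2A, MT1A, GLUL, PDK4, ANGPTL4, MAOA and FBXO32. It gave the lowest value for 3 targets (TFCP2L1, TAT and PCK1), or 8.57%, against 25.6% of all genes. The mean of the 35 gene-centred targets was 0.48 in control 17, and it ran from -0.19 to 0.15 in the other 6 controls and from -0.23 to 0.21 in the 7 treated animals other than prednisolone 30.

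Some marker lists of other cell types moved with that animal, and others did not. The Leydig, spermatogonia, lymphocyte and blood lists, at 0.04, 0.13, 0.48 and -0.17 in control 17, lay inside the range of the other controls. The mean of 7 smooth muscle genes was 1.57 in control 17, against -0.41 to 0.44 in the other controls and -0.26 to 0.44 in the treated animals other than prednisolone 30. The matrix list stood at 1.64 against -0.26 to 0.39 and -0.73 to 0.35, the endothelial list at 0.73 against -0.40 to -0.12 and -0.18 to 0.12, and the macrophage list at 0.86 against -0.32 to 0.40 and -0.43 to 0.31. The spermatid list stood at -0.78 against -0.20 to 0.32 and -0.14 to 0.42. Control 17 also lay outside the other controls, by less, for the Sertoli list (0.48 against -0.34 to 0.28 and -0.23 to 0.69). The same held for the spermatocyte list (-0.33 against -0.26 to 0.45 and -0.30 to 0.19) and the adipocyte list (-0.46 against -0.33 to 0.46 and -0.30 to 0.28). The epididymis list stood at 0.29 against -0.90 to -0.32 and -0.52 to -0.005. The part of these cells in the high target levels of control 17 was not tested. On the array of prednisolone 30 the mean of 3 epididymis genes, of 10 listed, was 4.26. It was -0.90 to 0.29 in the controls and no higher in the other treated animals. Most other lists also lay outside the range of all other animals on the array of prednisolone 30. The endothelial (1.35), lymphocyte (0.61) and blood (0.78) lists lay above that range. The smooth muscle (-1.58), Sertoli (-0.79), spermatogonia (-0.49), spermatocyte (-0.92), matrix (-0.84) and macrophage (-0.93) lists lay below it. Only the Leydig (0.09), spermatid (-0.08) and adipocyte (-0.34) lists lay inside it. Detection of these list genes on that low-signal array is not given here, and their part in its target values was not tested either.

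**Figure D4:**
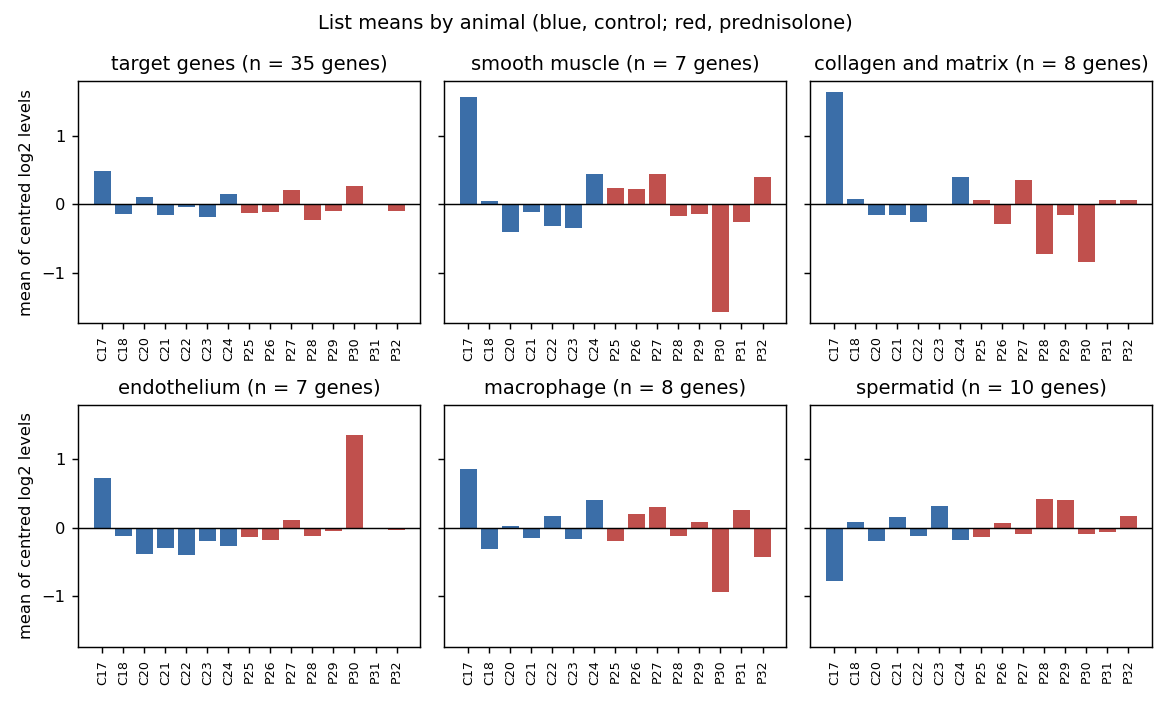
Mean of the gene-centred log2 levels of 6 gene lists (panels, with the number of genes) in each animal (C, control, blue; P, prednisolone, red), on 1 common vertical scale. Control 17 stands at 0.48 for the targets, 1.57 for smooth muscle and 1.64 for matrix genes and at -0.78 for spermatid genes.

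Scan day and slide were only partly crossed with treatment. Within the first scan day, which includes both outlying animals, 15 targets were higher and 20 lower (median -0.12), as with scan day as a block. With the slide as a block 17 were higher and 18 lower (median -0.10). Within the slide that held control 17 and 18 and prednisolone 25 and 26, 11 were higher and 24 lower (median -0.15). Within the slide that held control 23 and prednisolone 29 and 30, 17 were higher and 18 lower (median -0.03).

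Some targets varied widely between animals of the same group while others varied little. The median within-group SD over the 13 arrays without both outliers was 0.31 for the 35 targets and 0.28 for all tested genes. It was 1.07 for ANXA1, 0.97 for MT1A, 0.73 for MT2A, 0.72 for ERRFI1 and 0.55 for CDKN1C, which put ANXA1 above 99.3% of the tested genes. ANXA1 was well above background on only 5 of 7 control and 5 of 8 treated arrays, and MT1A on 5 of 7 and 6 of 8. How far values near background widened the spread of ANXA1 and MT1A was not tested.

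Of 6 gene pairs compared across the 14 animals other than prednisolone 30, 2 correlated. The share of all gene pairs that correlate as strongly on these arrays was not counted. MT2A and MT1A correlated with Pearson's r = 0.822 (permutation p = 0.00035, adjusted over 6 pairs 0.001) and Spearman's rho = 0.675 (permutation p = 0.01, adjusted 0.030). Without the 2 animals farthest from the median of MT2A, control 17 and 24, r was 0.667, and r was 0.953 within the 7 controls and 0.510 within the 7 treated animals. CEBPB and CEBPD correlated with r = 0.869 (permutation p = 6e-05, adjusted 0.00036) and rho = 0.701 (permutation p = 0.0067, adjusted 0.030). Without control 17 and 22 r was 0.734, and it was 0.921 within the controls and 0.678 within the treated animals. The metallothioneins share similar sequence, and whether a probe of one also binds the other could not be checked here.

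For the other 4 pairs the correlation did not pass the test. Pearson's r was 0.096 for FOXO1 and FOXO3, 0.235 for PCK1 and G6PC, 0.097 for FOXO1 and FBXO32, and 0.135 for DUSP1 and ZFP36. The adjusted permutation p was 0.735 for each of the 4.

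**Figure D5:**
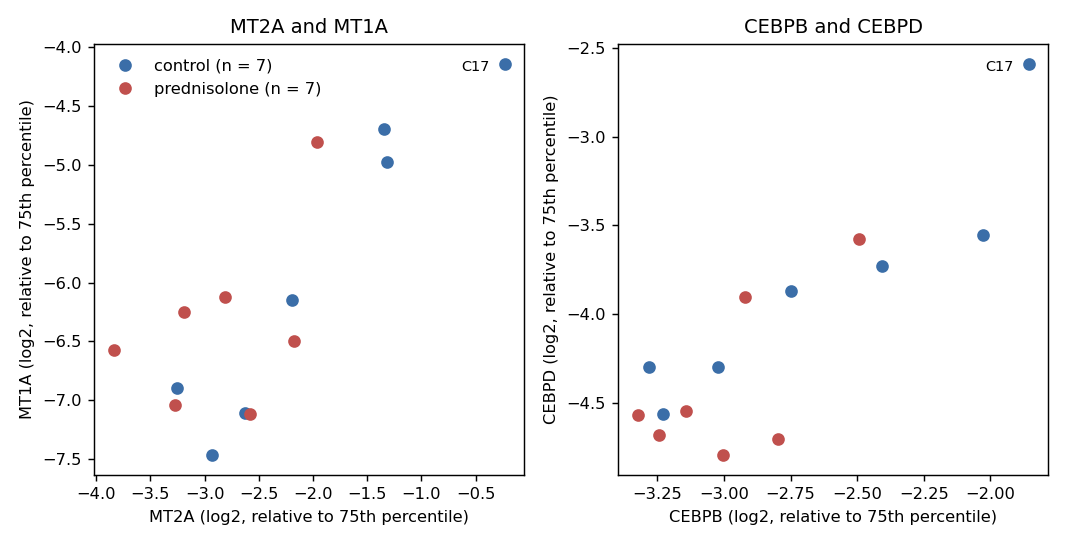
Log2 levels, relative to the 75th percentile of the array, of MT1A against MT2A (left) and CEBPD against CEBPB (right), 1 point per animal (blue, 7 controls; red, 7 prednisolone animals without prednisolone 30). Both pairs climb together (r = 0.822 and 0.869), and control 17 (C17) is the top point of each.

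Further genes of the same response were read from separate lists. Of 20 further glucocorticoid-induced genes 18 were tested, 6 with a higher and 12 with a lower mean (median -0.05), and 0 passed the limma test after adjustment, with 1 of 18 at an unadjusted p below 0.05, against 2.44% of all genes. FKBP5, a co-chaperone that limits receptor binding, had means of 1.1 ± 0.51 (SD, n = 7) and 0.99 ± 0.15 (SD, n = 8) and a difference of -0.10 (-0.52 to 0.31), or 0.03 without both arrays. PER1, a clock gene with a glucocorticoid response element, had means of 3.50 ± 0.29 (SD, n = 7) and 3.47 ± 0.50 (SD, n = 8) and a difference of -0.03 (-0.49 to 0.43), or 0.12 without both. TXNIP, an inhibitor of thioredoxin, differed by -0.65 (-1.21 to -0.10), or -0.33 without both arrays, and LCN2, an iron-carrier binding protein, by 0.43 (-0.06 to 0.93), or 0.19 without both.

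Of 16 genes that glucocorticoids repress, 13 were tested, and 0 passed the limma test after adjustment, with 2 of 13 (CCL5 and IL6) at an unadjusted p below 0.05, against 2.44% of all genes. With all arrays 8 were higher and 5 lower, and without prednisolone 30, whose mean over this list was 1.92, 4 were higher and 9 lower. CCL5, a chemokine of lymphocytes, differed by -0.56 (-1.08 to -0.03), or -0.53 without both arrays. IL6, a cytokine, exceeded background clearly on 3 of 7 arrays of controls and 7 of 8 of treated animals. It entered the test through the group in which it was higher, with most controls at background, so no fold is given (unadjusted p = 0.006 and adjusted p = 0.883 by limma).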

How the data were processed

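Testis RNA of 15 cattle (7 control, 8 prednisolone, each sample 1 animal by its label) was measured on single-colour Agilent arrays. The deposited scanner files hold spot intensities made with Feature Extraction 9.5.1.1, per the file headers; the processed signal is background-subtracted and detrended within each array. The deposited value table is a signal on a linear scale with column medians of 440 to 497; the submitters' processing notes name R 2.11.1, and its centring and scaling are not given in the sources used here.

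From the processed signals, control spots and outlier spots were removed, log2 was taken, the array's 75th percentile was subtracted, and the spots of a probe were averaged. Of 21475 probes, 18492 were well above background on at least 7 of 15 arrays and were tested with limma 3.58.1 in R 4.3.3 (lmFit, eBayes, Benjamini-Hochberg over all of them, threshold 0.05), a fit checked on simulated data. A gene was read through its brightest probe. Member probes were found by accession (16), gene number (17), description (13) or symbol (2), and symbols were updated through RefSeq's bovine gene table. Alternatives were quantile scaling, normexp with an offset of 50, the deposited values, outlier spots kept, other filters, the mean over probes, array weights, scan day and slide, and omission of arrays. Pair correlations used 100000 permutations.

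The members and gene lists were chosen with earlier results of these data known. Every target is named. Those given with their lowest, median and highest values were set by name or as the 4 tested targets that ranked first by unadjusted p among the higher and among the lower; of the further lists, FKBP5, PER1 and the first 2 each way are named. TDO2, HP, CXCL8, SELE and CSF2 were too dim to test. Probe sequences and genome positions were not used here.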

Additional observations from a re-analysis of the deposited data

Results flagged for a closer look

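Among the 70 sets of values formed by 35 targets in 2 groups, 20 had 1 animal set far from the others of its group, judged by its gap to the nearest animal as a share of the group's range. Chance alone flags about 1 in 20 sets, or 3.5 of 70. The share flagged over all tested genes was not counted, so the 20 cannot be read as an excess particular to the targets. Prednisolone 30 was the highest array for 31.4% of the targets and 35.5% of all genes, and the lowest for 40.0% and 37.2%. Of the 20, 16 were values of prednisolone 30, whose array had a low signal throughout. Of these targets TSC22D1, BCL6, FOXO3 and DUSP1 were well above background on that array, and for the other 12 the value is only a bound, so its distance from the other animals is not a measured difference.

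Prednisolone 30 lay above the rest of the treated group for 7 targets. The log2 levels, with that of the next animal, were ZBTB16 (-0.41, next -2.12), BCL6 (-0.49, next -4.63), TFCP2L1 (0.36, next -2.21), IRS2 (-3.03, next -4.08), TAT (-1.84, next -3.39), PDK4 (-1.15, next -4.27), G6PC (-2.70, next -5.40). It lay below the rest for 9 targets, with values of TSC22D1 (0.89, next 2.05), FOXO1 (-3.68, next -2.69), FOXO3 (-0.38, next 0.67), SAP30 (-3.70, next -2.22), DUSP1 (-1.69, next 0.38), NFKBIA (-1.79, next -1.32), GADD45B (-2.32, next -0.57), GLUL (-3.03, next -1.71), SCNN1A (-0.94, next 0.17).

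In the controls, control 17 lay above the others for BCL6 (-4.25, next -4.77) and for DDIT4 (2.06, next 1.0). Control 18 lay below the others for FOXO3 (0.17, next 0.93), and control 23 for IRS2 (-4.63, next -4.34).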

How the results depend on the processing

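No target passed the adjusted limma threshold under any of the 30 alternatives, and the smallest adjusted p was 0.552, with array weights; the fits within single slides, of 4 and 3 arrays, are too small to bear on this. Of 1026 differences over all targets and alternatives, 116 had the opposite sign to the value reported, and 11 of the 35 targets kept their sign in every alternative. The values that turned were as follows, and the cause was not tested. In the authors' deposited values the difference was 0.064 for TSC22D1, -0.015 for ZBTB16, -0.095 for BCL6, 0.12 for FOXO3, -0.14 for IRS2, 0.027 for GADD45B, -0.084 for ANXA1, -0.015 for TAT, -0.43 for PDK4 and -0.063 for SLC19A2. In the deposited values without both arrays, an alternative chosen after seeing the data, the difference was 0.19 for TSC22D1, -0.030 for BCL6, 0.15 for FOXO3, 0.24 for DDIT4, -0.081 for IRS2, 0.17 for GADD45B, -0.16 for TAT, -0.31 for PDK4, -0.017 for PCK1, 0.041 for MAOA and -0.068 for SLC19A2. Without control 17 and prednisolone 30 the difference was 0.18 for TSC22D1, 0.14 for FOXO3, 0.013 for ZFP36, 0.23 for DDIT4, -0.032 for IRS2, 0.17 for GADD45B, -0.13 for TAT, -0.28 for PDK4, 0.052 for MAOA and -0.051 for SLC19A2. With arrays weighted by limma the difference was 0.079 for TSC22D1, 0.10 for FOXO3, 0.045 for SGK1, 0.035 for ERRFI1, 0.19 for DDIT4, -0.074 for IRS2, 0.084 for GADD45B, -0.19 for ANXA1, -0.41 for PDK4 and -0.063 for SLC19A2. With quantile scaling the difference was -0.26 for FOXO1, -0.13 for IRS2, -0.20 for ANXA1 and -0.25 for PCK1. With normexp background correction the difference was 0.16 for FOXO3, 0.23 for ZFP36, 0.0004 for DDIT4, 0.040 for GADD45B, 0.10 for MT1A and 0.11 for MAOA. As the mean over a gene's probes the difference was 0.12 for TSC22D1 and 0.17 for SGK1. With the slide as a block the difference was 0.11 for FOXO3, 0.32 for ERRFI1, -0.39 for ANXA1, 0.17 for MT1A and 0.064 for MAOA. With the scan day as a block, and equally within the first scan day, the difference was 0.050 for FOXO3, -0.14 for ANXA1 and 0.035 for MAOA. Within the slide of control 17 and 18 and prednisolone 25 and 26 the difference was -0.041 for BCL6, 0.72 for FOXO3, 0.89 for ERRFI1, -0.15 for IRS2, -3.10 for ANXA1, -0.84 for PDK4 and -0.007 for SLC19A2. Within the slide of control 23 and prednisolone 29 and 30 the difference was 0.76 for ZFP36, -0.73 for CDKN1C, 0.72 for MT2A, 2.22 for MT1A, 0.19 for ANGPTL4, -0.34 for PCK1, 0.71 for MAOA, 0.24 for FBXO32 and -0.52 for SCNN1A. Keeping only probes well above background on all 15 arrays left 11 targets, 4 with a higher mean, since fewer genes were tested. Keeping outlier spots, dropping the filter and the stricter filter turned no sign. With 1 array left out in turn, 14 targets turned sign in at least 1 case, and their differences ran from -0.14 to 0.097 for TSC22D1, -0.076 to 0.68 for BCL6, -0.17 to 0.14 for FOXO3, -0.15 to 0.085 for ZFP36, -0.093 to 0.18 for DDIT4, -0.059 to 0.21 for IRS2, -0.32 to 0.082 for GADD45B, -0.17 to 0.59 for ANXA1, -0.43 to 0.28 for MT1A, -0.41 to 0.17 for PDK4, -0.17 to 0.13 for MAOA, -0.16 to 0.002 for FBXO32, -0.032 to 0.35 for SLC19A2 and -0.12 to 0.028 for CRISPLD2. Leaving out prednisolone 30 turned 9 of them and leaving out control 17 turned 6. Over the same single omissions the number of targets with a higher mean ran from 12 to 20, and their median difference from -0.14 to 0.06. No paired analysis was possible because the labels give the groups no common replicate number.

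The number of arrays limits the precision, and the median half-width of the 95% interval over the targets was 0.53 (log2) with all arrays and 0.36 without both. These are medians, and the limit differs from gene to gene. The array of prednisolone 30 holds 1 of 8 treated animals, and its scanner values and deposited values do not describe the same profile. Scan day and slide were only partly crossed with treatment, and a day or slide that held 1 group gave no within-batch value.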
